A study of Mus musculus with 4 samples.

Results

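The 13 lineages described here were PB3 tumor cell families that were based in chromatin cluster 8 without treatment and were not seen after eribulin. A lineage is the set of cells that carry the same lentiviral barcode. Members were chosen by 3 counts: at least 10 untreated multiome cells, 0 eribulin multiome cells, and more untreated multiome cells in cluster 8 than in any other cluster, with ties given to the lowest cluster number. Of the 484 barcodes in the untreated multiome library and 490 in the whole series, 125 reached 10 untreated multiome cells. Of these 125, 107 (85.6%) had no eribulin multiome cell, and 13 of the 107 were based in cluster 8. PB3 is a mouse mammary tumor cell line, and its cells were profiled either with no treatment or after 4 rounds of 500 nM eribulin, each of 72 h followed by 48 h of recovery. Both conditions were measured by the ATAC side of a multiome assay on nuclei and by single-cell ATAC-seq (scATAC), with 1 library per condition and assay. The spread between replicate cultures was therefore not measured, and all intervals are exact 95% binomial (Clopper-Pearson) intervals that cover counting error only.

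Lentiviral barcodes are short designed DNA sequences that integrate into the genome of an infected cell and pass to its descendants. Eribulin binds the growing ends of microtubules and disturbs the mitotic spindle, so that dividing cells arrest. ATAC-seq uses the transposase Tn5, which cuts where chromatin is open, and cells with a similar set of cut peaks are placed in the same cluster. A barcode that is missing from a treated library may be absent from the culture or only from the cells that were sampled.

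Each barcode joined a short part of 14 bases, the linker TGGT at bases 15 to 18 and a long part of 30 bases, 48 bases in all. It is named by the numbers of its short and long parts. The sequences of the 6 largest members and of 37-17774, which shares its short part with 37-3897, are given because the loss of a lineage is read from these letters alone. They run 5′ to 3′ as listed by the authors, with the short part in capitals.
55-6980: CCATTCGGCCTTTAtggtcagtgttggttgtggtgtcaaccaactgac
2-46691: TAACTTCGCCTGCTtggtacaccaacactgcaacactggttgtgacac
18-19605: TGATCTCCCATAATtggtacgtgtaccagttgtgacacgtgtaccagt
36-3590: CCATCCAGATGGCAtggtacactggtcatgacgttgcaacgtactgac
2-7735: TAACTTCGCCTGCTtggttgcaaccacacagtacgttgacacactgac
37-3897: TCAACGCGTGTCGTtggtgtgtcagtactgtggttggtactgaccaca
37-17774: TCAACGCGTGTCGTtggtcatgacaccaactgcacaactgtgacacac

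The members had little sequence in common beyond the design. The 13 barcodes used 11 short parts and 13 long parts, because 2-46691 and 2-7735 carried the same short part, as did 37-3897 and 37-17774. In each of these pairs the long parts differed at 24 of their 30 bases. Over all 78 pairs of members, the full barcodes differed at 23 to 38 bases, with a median of 32. All 100000 long parts of the authors' list were built only from the pairs AC, CA, GT and TG, so each had a GC content of 50.0%. The members' own GC content of 43.8% to 52.1% therefore varied only through the short part, with 33-21562 the lowest.

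A member was also far in sequence from the barcodes that were called after eribulin. The nearest of the 27 eribulin multiome barcodes differed from a member at 18 to 28 bases. The smallest distance, 18 bases, was found for 55-6980 against 55-23349, for 37-3897 against 37-24227 and for 29-86374 against 29-49561, which share a short part within each pair. Among all 490 barcodes seen, the closest to any member was 10 bases away, for 2-46691 against 2-49633 and for 37-17774 against 37-30209.

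The members ranged from 10 to 82 cells in size. Barcode 55-6980 was called in 82 of the 4772 untreated multiome cells with a single called barcode (1.72%, 1.37 to 2.13), and it ranked sixth in size among the 125 barcodes. Barcodes 2-46691 and 18-19605 had 41 cells each (0.859%, 0.617 to 1.16), and 36-3590 had 25 (0.524%, 0.339 to 0.772). Barcodes 2-7735 and 37-3897 had 20 cells each (0.419%, 0.256 to 0.647). The other 7 were small, with 16 cells of 33-21562, 15 each of 37-17774 and 99-76284, 12 each of 29-86374 and 57-68538, 11 of 63-86868 and 10 of 10-77351. Together the 13 members had 320 cells, or 6.71% (6.01 to 7.45) of the called cells. The 3 largest held 51.2% of these 320 cells, so any value pooled over cells leans on them. The median member had 16 cells, against 19 for the 94 lost barcodes with another home cluster.

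The home cluster set the choice of members, so the following shares are a description. Pooled over cells, 206 of 320 member cells lay in cluster 8 (64.4%, 58.9 to 69.6), which held 324 of the 4452 called cells of all other barcodes (7.28%). The share of a member's cells in cluster 8, its purity, ranged from 43.8% to 78.0%, with a median of 60.0%. The purest member was 18-19605, with 32 of 41 cells in cluster 8 (78.0%, 62.4 to 89.4), followed by 55-6980 with 58 of 82 (70.7%, 59.6 to 80.3). Barcode 36-3590 had 16 of 25 (64.0%, 42.5 to 82.0), 37-3897 had 13 of 20 (65.0%, 40.8 to 84.6), 2-46691 had 25 of 41 (61.0%, 44.5 to 75.8) and 2-7735 had 11 of 20 (55.0%, 31.5 to 76.9). These intervals overlap one another, so no order of purity among the 6 largest members was resolved by the counts.

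In 11 members over 50% of the cells lay in cluster 8. The exceptions were 33-21562, with 7 of 16 cells (43.8%, 19.8 to 70.1), and 10-77351, with 5 of 10. The margin to the next cluster was narrowest for 63-86868, with 6 cells in cluster 8 and 4 in cluster 3, a lead of 2 cells. No member had a tie for its main cluster. The median purity of lost barcodes was 72.9% for the 47 based in cluster 2, 64.0% for the 22 based in cluster 3, 62.1% for the 12 based in cluster 6 and 71.9% for the 8 based in cluster 9. It was 54.5% for the 3 based in cluster 14 and 71.2% for the 2 based in cluster 16. The members' 60.0% was above only the median of cluster 14. The ranges overlapped, with 27.3% to 88.7% for cluster 6 and 46.7% to 85.7% for cluster 9. Pooled over cells, the members' 64.4% (58.9 to 69.6) was the lowest of these homes, next to 65.2% for cluster 3. Its interval lay under those of cluster 2 (74.8%, 72.3 to 77.1) and cluster 6 (73.9%, 69.9 to 77.7) and overlapped those of the other homes. Whether the homes differ was not tested, because the clusters defined the sets.

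Outside cluster 8 the members' cells were scattered. Each member occupied 3 to 7 clusters, with a median of 5. Clusters 2 and 3 each held 30 of the 114 member cells outside cluster 8 (26.3%, 18.5 to 35.4), cluster 6 held 18 (15.8%, 9.63 to 23.8), cluster 9 held 13 (11.4%, 6.21 to 18.7) and cluster 14 held 8 (7.02%, 3.08 to 13.4). Among the 4128 called cells of other barcodes outside cluster 8, cluster 2 held 41.0% (39.5 to 42.5), cluster 3 held 21.6% (20.3 to 22.9), cluster 6 held 16.5%, cluster 9 held 10.8% and cluster 14 held 5.79%. The rule shapes this comparison, since no member can have cluster 2 as its home and the other barcodes include 56 that do, so nothing is read from the lower share in cluster 2.

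Few member cells lay in the minor clusters. Cluster 15 held 8 of the 320 member cells (2.50%, 1.09 to 4.87), from 5 members, against 1.15% of the called cells of other barcodes. Cluster 0, the cluster with most eribulin multiome cells, held 4 (1.25%, 0.342 to 3.17), 1 each of 33-21562, 37-17774, 29-86374 and 10-77351, against 0.382%. Cluster 16 held 1 (0.312%, 0.008 to 1.73) against 1.19%, and clusters 10 and 12 held none. For clusters 0, 15 and 16 the members' interval over all 320 cells includes the share of the other barcodes. Among cells outside cluster 8, cluster 15 held 7.02% of member cells (3.08 to 13.4) against 1.24% (0.921 to 1.62) of the other barcodes' cells. Cluster 0 held 3.51% (0.964 to 8.74) against 0.412% (0.240 to 0.659), and cluster 16 held 0.877% (0.022 to 4.79) against 1.28%. On that scale the members' intervals for clusters 0 and 15 lay above those of the other barcodes, on 4 and 8 cells. The scale leaves out the members' home cells but keeps most home cells of the other barcodes. It thus raises the members' shares in minor clusters, and nothing is read from them. Whether the members differ there was not tested. The 8 cells in cluster 15 had a median nucleosome signal of 1.42 and 3461 cut sites, and the 4 cells in cluster 0 had a median of 1517.5 cut sites, far under the members' overall median. The part of depth in these cluster assignments was not tested.

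The second most frequent cluster differed from member to member. It was cluster 3 in 6 members, among them 55-6980 with 8 of 82 cells (9.76%, 4.31 to 18.3), 18-19605 with 4 of 41 and 37-3897 with 3 of 20. It was cluster 2 in 3 members, with 5 of 25 cells of 36-3590 (20.0%, 6.83 to 40.7), 3 of 20 cells of 2-7735 and 4 of 15 cells of 37-17774 (26.7%, 7.79 to 55.1). Barcodes 2-46691 and 10-77351 had cluster 6 second, with 7 of 41 cells (17.1%, 7.15 to 32.1) and 2 of 10, and 99-76284 had cluster 9, with 2 of 15. In 63-86868 the second cluster, 3, reached 36.4% (10.9 to 69.2), the highest of any member. Barcode 29-86374 had 7 of 12 cells in cluster 8 and 1 cell in each of 5 other clusters. The pairs with a common short part did not share a second cluster: 2-46691 had cluster 6 and 2-7735 cluster 2, and 37-3897 had cluster 3 and 37-17774 cluster 2.

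The share of cluster 8 that the members held was partly set by the rule, so it is a description. Of the 530 untreated multiome cells in cluster 8 with a single called barcode, 206 were member cells (38.9%, 34.7 to 43.2), and 55-6980 alone gave 58 (10.9%, 8.42 to 13.9). Another 66 cells (12.5%) belonged to 3 barcodes that were based in cluster 8 but had eribulin cells. A further 126 cells (23.8%) came from barcodes of at least 10 cells with another home, and 132 (24.9%) from rarer barcodes. Cluster 8 thus held 161 distinct barcodes. Called cells from all but the lost barcodes based there were 324 of 530 in cluster 8. The same count was 789 of 1722 in cluster 2, 601 of 921 in cluster 3 and 323 of 700 in cluster 6. It was 290 of 458 in cluster 9, 95 of 247 in cluster 14 and 31 of 54 in cluster 16. A single barcode was called in 47.3% (44.4 to 50.3) of its 1120 cells and in 50.1% (49.1 to 51.2) of the cells in other clusters, and 7.14% against 6.96% were called doublets.

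Cluster 8 was spread out on the deposited UMAP, the map that places cells with like accessibility near each other. Of the 10 nearest neighbours of a cluster 8 cell, 23.0% on average were in cluster 8 when the cells of all 4 libraries were used, the lowest of the 17 clusters, with 34.2% for cluster 14 next. Among called untreated multiome cells, clusters 0 and 4, with 21 and 50 cells, had lower values than cluster 8, at 2.86% and 3.60% against 23.6%. Relative to its size, at 2.12 times its share of the called cells, cluster 8 was close to clusters 2 (2.02) and 3 (2.09). Among these called cells, of which cluster 8 held 11.1%, member cells in cluster 8 had 23.1% of their neighbours in it. Member cells outside it had 11.6%, and other barcodes' cells outside it had 9.26%. The map and the clusters were made on the same cells, so these values describe the data and support nothing further.

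Within cluster 8, the share of neighbours on that map that carried the same barcode varied between members. No spread was computed for these shares, and whether lineages are grouped was not tested. A neighbour was of the cell's own barcode in 6.94% of cases, averaged over the 206 member cells, against 5.27% if neighbours were drawn evenly from the cluster's called cells. The largest member, 55-6980, was slightly under an even draw, with 10.2% against 10.8%. Barcode 2-46691 had 12.0% against 4.54%, 37-3897 had 4.62% against 2.27%, and 18-19605 had 7.81% against 5.86%. The small members 33-21562, 57-68538 and 10-77351 had no neighbour of their own barcode, with 7, 7 and 5 cells in the cluster. Other small members had more than an even draw gives, by a factor of 5.29 for 63-86868, 3.67 for 37-17774, 2.94 for 99-76284 and 2.52 for 29-86374, on 6 to 10 cells each. Barcodes 2-7735 and 36-3590 had 2.73% against 1.89% and 3.12% against 2.84%.

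The members' depth lay near that of the library, and their pooled cells in cluster 8 were shallower than their other cells. Member cells had a median of 5162 cut sites in peaks (quartiles 3373 and 8042), against 5452 in the other called cells of the library. The medians of single members ran from 3703 in 29-86374 (quartiles 2730 and 5858) to 7022 in 37-17774 (4699 and 9293). For the largest members the median was 5230.5 in 55-6980, 5201 in 2-46691, 4987 in 18-19605, 5341 in 36-3590, 4714.5 in 2-7735 and 5069.5 in 37-3897. These 6 medians lie close together beside the wide spread of cells within each lineage, whose quartiles were 3629 and 7064 in 55-6980 and 2600 and 7827 in 2-46691.

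Inside cluster 8 the member cells had a median of 4954.5 cut sites, against 5984 outside it, and against 5611 in cluster 8 cells of other barcodes. The direction was not common to all lineages: the median was lower inside cluster 8 in 8 members and higher in 5. Barcode 37-3897 had 2997 cut sites inside and 9432 outside, and 55-6980 had 4930 and 6575.5. In contrast, 2-46691 had 5524 inside and 4385.5 outside, and 37-17774 had 8139 and 5792.5. The number of peaks detected per cell followed depth, with a median of 4717.5 in member cells and 4975.5 in other called cells, and with the same split of 8 members and 5. Negative cells in the whole library, in which no barcode was called, had a median of 4741 cut sites, fewer than member cells, and how far depth decides which cells carry a call was not tested.

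The nucleosome signal, which sets fragments of the length of 1 nucleosome against shorter, nucleosome-free ones, hardly set the members apart. Its median was 0.897 (quartiles 0.814 and 0.991) in member cells and 0.907 (0.814 and 1.01) in other called cells, a difference of -0.010. In cluster 8 it was 0.901 in member cells and 0.892 in the cells of other barcodes, so the direction turned within the cluster. Barcode 29-86374 had the highest median, 0.978, and 10-77351 the lowest, 0.831, on 12 and 10 cells. The 6 largest members lay between, at 0.904 for 55-6980, 0.850 for 2-46691, 0.865 for 18-19605, 0.921 for 36-3590, 0.913 for 2-7735 and 0.877 for 37-3897. All 13 medians lay above 0.668, the median of the called eribulin multiome cells. The same held for lost barcodes of every other home, whose lowest medians ran from 0.799 for cluster 6 to 0.854 for cluster 2.

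Within lineages the nucleosome signal had no common direction between cluster 8 and the rest. It was higher inside cluster 8 in 8 members, such as 2-46691 with 0.898 inside and 0.812 outside. It was lower inside in 5 members, such as 99-76284 with 0.797 inside and 0.985 outside. The TSS enrichment, which sets cuts near transcription start sites against their flanks, had a median of 5.033 in member cells and 5.004 in other called cells. By member it ran from 4.82 in 29-86374 to 5.38 in 57-68538, and it was higher inside cluster 8 in 6 members and lower in 7. In these measures of cell quality the members were thus spread around the library's own values.

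The absence of the members after eribulin was fixed by the rule, and how much it says depends on the size of each lineage. A single barcode was called in 1391 eribulin multiome cells, so a count of 0 allows a share of up to 0.216% (3 counts). At unchanged shares, 55-6980 would have had 23.9 of the 1391 cells, 2-46691 and 18-19605 12.0 each, 36-3590 7.29, and 2-7735 and 37-3897 5.83 each. The measured untreated share was 7.97 times this limit for 55-6980, 3.98 times for 2-46691 and 18-19605, 2.43 times for 36-3590 and 1.94 times for 2-7735 and 37-3897. With the counting error of both shares included, the lower bound of the exact interval of their ratio was 6.33 for 55-6980, 3.10 for 2-46691 and 18-19605, 1.83 for 36-3590 and 1.44 for 2-7735 and 37-3897. For these 6 of the 13 members the limit also lay under the lower bound of the untreated interval. Of all 125 barcodes with at least 10 cells, 50.4% met this condition. For barcodes with eribulin cells, the limit was there the exact upper bound of the eribulin share.

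For the 7 smaller members the loss was not resolved at this depth. They would have had 2.91 to 4.66 cells at unchanged shares, and the limit of 0.216% lay inside the interval of each untreated share. For 33-21562, the largest of them, the untreated share of 0.335% had an interval of 0.192% to 0.544%. For 10-77351 the untreated share, 0.210%, was itself under the limit. The count of 6 also moved with the method. By the lower bound of the exact ratio it was 9, with 33-21562 (1.12), 37-17774 (1.05) and 99-76284 (1.05) added. It was 4 with the exact upper bound for a count of 0 in place of 3 counts, so that 2-7735 and 37-3897 dropped out. It was also 4 among cells of at least 3000 cut sites and against eribulin cells named with hyphens only. The share over all 125 barcodes was taken only for the version that gave 6. The other counts thus have no background beside them.

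The eribulin library was taken up by few lineages, which bears on every other barcode. Its 5 most frequent barcodes had 1244 of the 1391 called cells, and only 147 cells remained for the other 22 barcodes. Had the members kept their share among the cells outside those 5 barcodes, they would together have had 10.0 of the 147, and 55-6980 alone 2.57. A count of 0 in 147 allows up to 2.04%, above the 1.75% that 55-6980 had among the corresponding 4693 untreated cells. On this scale no single member could be told from unchanged. The comparison was chosen after the data had been seen.

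To set the loss apart from the rule, all 16 barcodes based in cluster 8 with at least 10 untreated cells were taken, whatever their eribulin count. Of these, 13 (81.2%) had no eribulin multiome cell, against 85.6% of the 125 barcodes in all homes, so being based in cluster 8 did not go with a higher share of lost barcodes. The 16 barcodes had 411 untreated cells (8.61%, 7.83 to 9.44) and 4 eribulin cells (0.288%, 0.078 to 0.735), a ratio of 30.0 (exact interval 11.6 to 110), against 1.41 (1.29 to 1.53) for the barcodes based elsewhere, which include 3 of the 5 most frequent eribulin barcodes. With all called cells counted, the ratio by home was 47.8 (13.1 to 396) for cluster 9 and 4.01 (3.32 to 4.89) for cluster 2. It was 1.03 (0.857 to 1.25) for cluster 3 and 0.390 (0.342 to 0.445) for cluster 6. Barcodes based in clusters 14 and 16 had 0 eribulin cells, with lower bounds of 16.8 and 2.39. Outside the 5 most frequent eribulin barcodes, the shares of the 16 barcodes were 8.76% and 2.72% (0.746 to 6.82), a ratio of 3.22 (1.25 to 11.9). The barcodes based elsewhere had a ratio of 2.48 (1.81 to 3.47) on the same scale, from 1.39 (0.998 to 2.01) for cluster 2 to 15.7 (2.80 to 621) for cluster 3 among homes with eribulin cells. On this scale, without the 5 frequent barcodes, the interval of cluster 8 overlaps each of these. The difference between homes was not tested.

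A group of 3 barcodes met the rule but for their eribulin cells. Barcode 51-21431 had 41 untreated cells, 31 of them in cluster 8 (75.6%), and 1 eribulin cell, in cluster 0. Barcode 29-67687 had 20 untreated cells, 15 in cluster 8, and 1 eribulin cell, in cluster 12. Barcode 51-38039 had 30 untreated cells, 20 in cluster 8, and 2 eribulin cells, both in cluster 8. These last 2 cells had nucleosome signals of 0.619 and 0.621, under the untreated median, and were among only 26 eribulin multiome cells in cluster 8. A single eribulin cell thus separates 2 of these 3 lineages from the members. The 3 lineages had a pooled median of 5996 cut sites, against 5162 in member cells. Only 29-67687, with a median of 7942, lay above every member. The medians of 51-21431 and 51-38039, at 5288 and 5451.5, lay within the range of the members' medians.

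Other barcodes stood just outside the rule on the remaining counts. Barcode 21-41964, with 15 untreated and 0 eribulin cells, had 6 cells each in clusters 3 and 8 and was placed in cluster 3 by the tie. Another 9 barcodes based in cluster 8 had 5 to 9 untreated cells and 0 eribulin cells, from 96-99866 with 9 cells and 3 in cluster 8 to 61-61602 with 5 of 5. Just inside the rule stood 10-77351, with 10 cells, and 63-86868, with 11.

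The scATAC libraries, which had no part in the choice of members, held few cells with a called barcode. Whether they came from the same cultures as the multiome libraries is not stated in the sources used here, so they may repeat the assay only. Barcode 55-6980 was called in 2 of the 29 called untreated scATAC cells (6.90%, 0.846 to 22.8), and the other 12 members in none, for each of which the limit is 10.3%. The multiome share of the 13 members would give 1.94 of 29 cells. Neither cell of 55-6980 lay in cluster 8: 1 was in cluster 9, with 4349 cut sites, and 1 in cluster 4, with 6633 cut sites and a nucleosome signal of 1.38. No member was called in the 84 called eribulin scATAC cells, which allows up to 3.57%, where the untreated multiome share of 6.71% would give 5.63 cells. The limit lies inside the wide interval of the untreated scATAC share, so the scATAC libraries alone could not show a loss.

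Whole-library facts that touch these counts are as follows. There were 9583 nuclei in the untreated multiome library, with 61629245 cut sites in peaks, and 8114 in the eribulin one, with 49446970, and a single barcode was called in 49.8% and 17.1% of them. In the eribulin library 6622 cells were negative, 39 had an unmapped barcode, 56 were doublets and 6 were multiplets. A member's cell among any of these would not be counted. Called eribulin cells had a median of 5957 cut sites and negative ones 3914. The multiome libraries shared 123 cell barcodes of the droplet kit, 2 of them with member cells. That no member was called in the eribulin library was fixed by the rule. Genes were not analysed here, so cluster 8 is given by its number.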

How the data were processed

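Untreated and eribulin multiome nuclei, 1 library each, were compared, and 2 scATAC libraries were set beside them. Per the series' design text, cellranger-arc 1.0.0 (multiome) and mm10 were used, followed by Signac 1.1.1; the sources used here do not say how libraries were integrated or barcodes called. The authors deposited raw counts per cell, of cut sites in peaks and of peaks detected. The deposited nucleosome signal and TSS enrichment were each taken as a ratio per cell. The file headers give only their names. Each UMAP axis is a unitless score, as deposited. Barcode names, written in 3 forms, were brought to 1 form by their short and long numbers; all 490 were found in the deposited list of 10000000.

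Doublet, multiplet, negative and unmapped cells were left out of lineage counts. Computed here were cell counts, shares with exact 95% intervals, ratios of shares with exact conditional intervals, medians and quartiles, a limit of 3 counts for a 0, and shares of 10 nearest neighbours on the UMAP (scipy 1.17.1 with numpy 2.4.6 and pandas 2.3.3 under Python 3.11.15). These functions were tested on simulated data. No test between treatments was made, because each group is 1 library and cells are not replicates. The members, and the rules for which barcodes are named and printed, were chosen with earlier results of these data known. Every member is named. Fuller values are given for the largest members and for those with a scATAC cell, a second cluster of at least 25%, or an extreme median. The fifth place in size was tied, so 6 members are treated as the largest. Neighbour shares, the comparison by home cluster and that without the 5 frequent eribulin barcodes were added after the data had been seen.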

Additional observations from a re-analysis of the deposited data

How the results depend on the processing

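The number of members followed the minimum of untreated cells: 22 barcodes met the rule at a minimum of 5 cells and 6 at a minimum of 20. With only cells of at least 3000 cut sites, 11 of the 13 remained, without 29-86374 and 10-77351, and leaving out ties changed nothing. The count of members under their untreated interval, 6, became 1 against the 372 eribulin cells named with a sequence, where a 0 allows up to 0.806%, and 0 without the 5 most frequent eribulin barcodes; both leave fewer eribulin cells. Means over member cells were higher than medians, at 6097 cut sites, 5390 peaks and a nucleosome signal of 0.921, and between 3000 and 10000 cut sites the median nucleosome signal was 0.915. In the 62 other alternatives for the main values, those without each of the 6 largest members included, counts stayed within 1.5 times and shares and medians within the counting interval. The other barcode columns of the cell table were empty, so that alternative was not run. No paired analysis was possible because each group is 1 library.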
